A study of Homo sapiens with 6 samples.

Results

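Lipid droplets store triglycerides and sterol esters, and the 10 genes described here encode proteins that coat them, build them and release fatty acids from them: PLIN2, PLIN3, HILPDA, G0S2, PNPLA2, ABHD5, LIPE, MGLL, FITM2 and BSCL2. They were taken by symbol, and all 10 were found among the 16070 genes of the deposited table and passed the filter on low values (a mean of 0.5 FPKM or more; FPKM express fragments relative to a gene's length and the library's total). The cells were NCI-H1299, an established line from a human lung carcinoma, and every group shares that background. The 6p group had received 25 µM of 6p, which the series calls a derivative of platensimycin, an antibiotic that blocks bacterial fatty acid synthesis. The control group was given 0.1% DMSO as vehicle, although a label field calls it untreated. No DMSO percentage was recorded for the 6p group. Both groups had 3 libraries, described as independent, and 48 h of exposure applied to both. Nothing says whether the libraries came from separate cultures on separate days, so p-values measure only the spread between these samples.

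Triglyceride is broken down in sequence. Adipose triglyceride lipase (ATGL, from PNPLA2) takes off the first fatty acid, hormone-sensitive lipase (HSL, from LIPE) acts on the diglyceride and on sterol esters, and monoglyceride lipase (from MGLL) finishes the reaction. ABHD5 is the co-activator of ATGL, G0S2 and HILPDA are small proteins that inhibit it, and perilipins on the droplet surface hold ABHD5 back or let it go. Droplets form in the endoplasmic reticulum membrane at sites marked by seipin (from BSCL2), and FITM2 acts in the same membrane to let storage fat bud off. PLIN2 is the constitutive droplet coat of most cells and is degraded when it is not bound to fat, while PLIN3 moves between cytosol and nascent droplets.

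The coat gene PLIN3 and the lipase gene LIPE were lower after 6p, and the ATGL gene PNPLA2 and its inhibitor G0S2 were higher by smaller amounts that depended on the libraries and the scaling. LIPE fell from 5.87 ± 0.133 to 3.02 ± 0.171 FPKM (means ± SD of 3 libraries, as in the pairs below) and PLIN3 from 91.8 ± 5.62 to 61.7 ± 1.17 FPKM. G0S2 went from 444 ± 63.7 to 592 ± 88.0 FPKM and PNPLA2 from 54.4 ± 4.26 to 64.8 ± 3.51 FPKM. With limma on log2(FPKM + 1), 2 members were called higher and 2 lower at adjusted p under 0.05, and 6 were not called. Among all 11745 genes tested, 46.5% were called, 21.3% as higher and 25.1% as lower, so 4 of 10 members is a share near the background. The members' median log2 fold change was 0.08, against -0.04 for all genes tested. Rescaling to TPM (each library's values brought to the same sum) gave another split over all genes, with 27.7% of called genes higher instead of 45.9%. It also moved the median of all genes by -0.17.

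**Figure D1:**
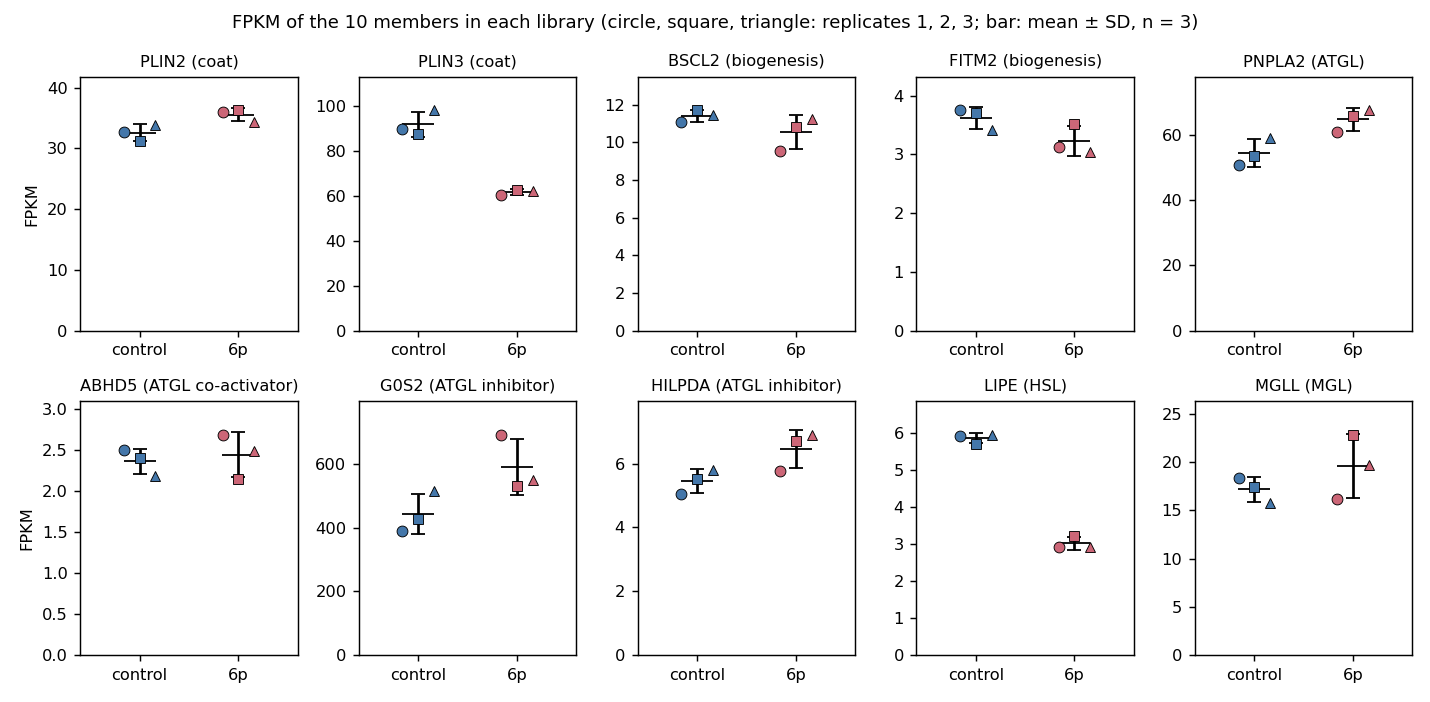
FPKM (linear axes from 0) of each member in the control (blue) and 6p (red) libraries, with the mean and SD of 3 libraries in black. The groups lie far apart for PLIN3 (87.4 to 98.1 against 60.4 to 62.5 FPKM) and LIPE (5.72 to 5.96 against 2.92 to 3.22 FPKM), and lie close or overlap for the other 8 members.

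Fold changes over all genes varied with gene length, and some libraries stood apart within their group. Fragment totals recovered from the values ran from 16775655 to 19957335. Within groups, control replicate 3 and 6p replicate 1 stood apart: chi-square per degree of freedom over fragments was 32.4 and 18.2 between control replicate 3 and the other controls, and 33.3 and 28.2 between 6p replicate 1 and the other 6p libraries, against 3.99 and 2.06 for the remaining pairs. The median log2 fold change of all tested genes ran from 0.25 in the shortest of 10 equal groups by length to -0.22 in the longest. Values are therefore also given with each library's trend on gene length removed, and without these 2 libraries. The 2 were picked because they differed from their groups in these same data, and leaving them out keeps 2 libraries per group. That choice lowers the spread, so p-values without them are likely too small, here and for each member below. With the trend removed, 1 member was called higher and 2 lower, against 53% of all genes called (24% higher, 29% lower). Without the 2 libraries, 5 members were called higher and 2 lower, against 65.9% of all genes (30.3% and 35.6%). Markers of the line were present: VIM was read at 2685 to 3060 FPKM, KRT8 at 281 to 354, KRT18 at 545 to 833 and NRAS at 27.4 to 40.7.

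Adipocyte transcripts were at or near 0. Of the 5 adipocyte markers, PLIN1 and CIDEC were listed, with summed levels of 0 to 0.0885 FPKM in control and 0 to 0.0356 in 6p. The other 3 markers, ADIPOQ, LEP and FABP4, were not found by symbol among the 16070 genes of the deposited table. All 5 leukocyte markers were listed, with sums of 57.3 to 60.0 FPKM in control and 59.7 to 71.5 in 6p. CD68, a lysosomal protein of many cell types, made up nearly all of each sum, and PTPRC, the defining leukocyte gene, was listed at 0 in every library but 6p replicate 3 (0.0188 FPKM). The 3 listed hepatocyte markers summed to 6.37 to 6.87 FPKM in control and 8.90 to 9.51 in 6p, nearly all of it SERPINA1, with ALB, the defining gene, at 0 to 0.132 FPKM. The 3 listed fibroblast markers summed to 0.269 to 0.353 FPKM in control and 0.173 to 0.308 in 6p. Whether other cell types had a part in any member's values was not tested beyond these levels.

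Promoter sequence was at hand for 8 of the 10 members, from RefSeq on GRCh38.p14, in windows of 250 bases before to 50 after each annotated start. HILPDA and MGLL were not matched. The windows below are those of the members that changed most, PLIN3 and LIPE, and of PLIN2, the coat gene paired with PLIN3 in the comparison of levels further on. Only the 250 bases before the start are shown, 5′ to 3′ on the strand of the gene. Capitals mark CCAAT boxes (CCAAT or ATTGG, its reverse complement) in PLIN3 and LIPE and ACGTG, the core of the hypoxia response element, or its reverse complement in PLIN2.
PLIN3, chr19:4867668-4867917, minus strand: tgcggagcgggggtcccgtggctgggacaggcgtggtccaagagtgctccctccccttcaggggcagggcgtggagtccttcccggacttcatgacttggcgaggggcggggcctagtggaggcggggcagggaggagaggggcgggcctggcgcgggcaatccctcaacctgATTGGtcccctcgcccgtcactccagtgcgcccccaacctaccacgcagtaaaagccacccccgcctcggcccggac
LIPE, downstream start, chr19:42423586-42423835, minus strand: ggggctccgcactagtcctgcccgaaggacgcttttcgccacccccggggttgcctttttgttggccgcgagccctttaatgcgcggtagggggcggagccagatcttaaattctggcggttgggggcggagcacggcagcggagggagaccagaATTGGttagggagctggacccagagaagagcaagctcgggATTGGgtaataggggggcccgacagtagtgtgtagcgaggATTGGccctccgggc
LIPE, upstream start, chr19:42427389-42427638, minus strand: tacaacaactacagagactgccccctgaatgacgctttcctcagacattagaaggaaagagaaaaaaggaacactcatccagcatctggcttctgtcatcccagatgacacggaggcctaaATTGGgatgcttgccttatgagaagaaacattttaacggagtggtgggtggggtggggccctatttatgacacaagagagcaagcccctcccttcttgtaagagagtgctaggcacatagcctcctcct
PLIN2, chr9:19127493-19127742, minus strand: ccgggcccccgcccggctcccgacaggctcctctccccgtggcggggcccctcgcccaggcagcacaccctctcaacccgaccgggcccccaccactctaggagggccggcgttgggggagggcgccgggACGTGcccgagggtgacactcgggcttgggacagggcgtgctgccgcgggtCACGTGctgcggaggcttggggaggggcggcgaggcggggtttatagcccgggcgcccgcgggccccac
These stretches differ in what they hold. Counting the last base before the start as -1, the PLIN3 window has its CCAAT box at -77 and GC boxes (GGGCGG) at -146 and -110. The downstream LIPE window has 4 CCAAT boxes, first bases at -95, -55, -15 and 18, the last of them after the start and so not printed. Both strands were searched. CCAAT was found in 3 of the 13 member windows, those of PLIN3 and LIPE, and in 34.6% of all 35116 windows. GC boxes were found in 9 of the 13 and in 45% of all, and the TATA core TATAA in 3 of the 13 (PLIN2, G0S2 and a BSCL2 window) and in 20.4% of all. These 3 motifs were chosen after the sequences were seen. ACGTG was found in PLIN2, at -120, -69 and -68, the last pair overlapping in the palindrome CACGTG, and in a BSCL2 window at -97, against 21.4% of all windows. The PPAR/RXR element (AGGTCA, any base, AGGTCA; 0.0228% of all windows), the ATF4 and CEBP core TGATGNAA (3.62%), the TFEB and TFE3 element TCACGTGA (0.98%, which contains ACGTG) and the forkhead element GTAAACA (3.42%) were in none of the 13. A match is letters in a window and does not show that a factor binds there.

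The perilipin PLIN3 (NCBI gene 10226; chromosome 19, 4838341 to 4867768 in GENCODE release 29 on GRCh38) was among the more abundant transcripts, at the 92.4th percentile of tested genes by mean FPKM. It was read at 89.98, 87.4 and 98.1 FPKM in control replicates 1 to 3 and at 60.4, 62.5 and 62.3 FPKM in 6p replicates 1 to 3. All 6p libraries lay below all controls, and the lowest control was well above the highest 6p library. The mean fell by 32.8%, with a log2 fold change of -0.56 ± 0.07 (SE, as for all that follow; adjusted p = 0.000722 in limma). The call held in all 19 alternative settings, with log2 fold changes from -0.75 to -0.50 and adjusted p from 3.49e-07 to 0.0102. The genes in its length group had a median log2 fold change of 0.07, and with the length trend removed PLIN3 stood at -0.67 ± 0.05. An antisense gene, AC027319.1, overlaps 502 nt of its exons.

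The other coat gene, PLIN2 (NCBI gene 123; chromosome 9, 19108375 to 19149290), did not fall. PLIN2 was read at 32.7, 31.2 and 33.9 FPKM in control and 36.0, 36.3 and 34.3 FPKM in 6p. The groups did not overlap, though by a narrow margin, as was so for 5 of the 10 members, 3 of them higher in 6p and 2 lower. Over all genes tested, groups did not overlap in 57.5%, 26% as higher and 31.5% as lower. The log2 fold change was 0.12 ± 0.07 with a 95% interval of -0.04 to 0.28 (adjusted p = 0.173 in limma, range over settings 0.0292 to 0.863). It passed as higher without control replicate 3 and 6p replicate 1 (0.14 ± 0.05, adjusted p = 0.0292), and its sign turned on rescaling to TPM (-0.05). The level of PLIN2 relative to PLIN3 within a library, per length in FPKM, was 0.364, 0.357 and 0.345 in the controls and 0.597, 0.581 and 0.551 in the 6p libraries. PLIN3 thus exceeded PLIN2 in every library, and the ratio was 0.355 ± 0.00952 in control and 0.576 ± 0.0236 in 6p with no overlap. No test was run on ratios, since the members were chosen with results known.

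**Figure D2:**
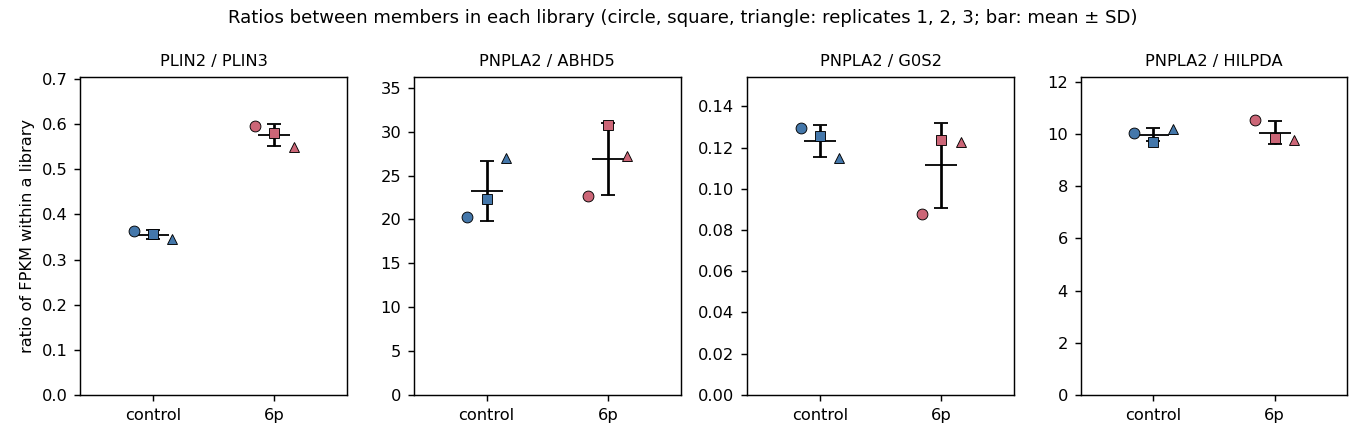
Ratio of 2 members' FPKM within each library (linear axes from 0) for PLIN2 over PLIN3 and for PNPLA2 over ABHD5, G0S2 and HILPDA, with the mean and SD of 3 libraries in black. The PLIN2 to PLIN3 ratio separates the groups (0.345 to 0.364 against 0.551 to 0.597), and the other ratios overlap.

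Both droplet biogenesis genes missed the threshold. BSCL2 (NCBI gene 26580; chromosome 11, 62690275 to 62709845) was read at 11.1, 11.7 and 11.5 FPKM in control and 9.52, 10.8 and 11.2 FPKM in 6p. Only 6p replicates 1 and 2 lay below the controls. On the log2 scale 6p differed from control by -0.11 ± 0.08 (95% interval -0.30 to 0.08, adjusted p = 0.297 in limma, range over settings 0.0664 to 0.619). BSCL2 shares 1610 nt of exon with the readthrough gene HNRNPUL2-BSCL2 on the same strand, so its value is uncertain by the unknown split of shared reads. GNG3, on the other strand, overlaps 447 nt and was read at 0 to 0.0754 FPKM (group means). FITM2 (NCBI gene 128486; chromosome 20, 44302838 to 44311169) was read at 3.75, 3.70 and 3.41 FPKM in control and 3.12, 3.51 and 3.04 FPKM in 6p, so that 6p replicate 2 lay among the controls. Its log2 fold change was -0.13 ± 0.08 (95% interval -0.32 to 0.06, adjusted p = 0.213 in limma, range over settings 0.0820 to 0.449). The sign was negative for both genes in all 19 alternative settings.

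The ATGL gene PNPLA2 (NCBI gene 57104; chromosome 11, 818902 to 825573) was read at 50.7, 53.6 and 59.0 FPKM in control and 60.9, 65.9 and 67.6 FPKM in 6p. All 6p libraries lay above all controls, but 6p replicate 1 exceeded control replicate 3 by little. Its log2 fold change was 0.25 ± 0.08 (95% interval 0.06 to 0.44, adjusted p = 0.0393 in limma, range over settings 1.86e-05 to 0.498). The call held in 11 of 19 settings. Leaving out a control ended it for replicate 1 (0.20, adjusted p = 0.135) and replicate 2 (0.24, adjusted p = 0.133). Leaving out a 6p library did so for replicate 2 (0.24, adjusted p = 0.106) and replicate 3 (0.22, adjusted p = 0.13). It was also lost with no filter (adjusted p = 0.0538), with a replicate block, on rescaling to TPM (0.07, adjusted p = 0.498) and after the length trend had been taken out (0.12 ± 0.07, adjusted p = 0.17). The antisense gene AP006621.1 overlaps 401 nt of its exons. Without control replicate 3 and 6p replicate 1, which leaves 2 libraries per group, PNPLA2 stood at 0.35 ± 0.05 (adjusted p = 1.86e-05 in limma).

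G0S2 (NCBI gene 50486; chromosome 1, 209675420 to 209676388), the ATGL inhibitor, was the most abundant member by far, at the 99.2th percentile of tested genes. It was read at 391, 427 and 515 FPKM in control and 693, 532 and 552 FPKM in 6p. The 2 libraries that stood apart were the highest of their groups, control replicate 3 by 0.33 and 6p replicate 1 by 0.36 above the mean of the other libraries of their group on the log2 scale. HILPDA, also short, deviated by -0.21 in 6p replicate 1, in the other direction. G0S2 has a recovered length of 876 nt, the shortest of the members, and the genes in its length group had a median log2 fold change of 0.25. Its own was 0.41 ± 0.14 (95% interval 0.08 to 0.75, adjusted p = 0.045 in limma, range over settings 1.34e-05 to 0.152). After the length trend was taken out it was 0.08 ± 0.03 (adjusted p = 0.0686), while without the 2 libraries that stood apart it was 0.41 ± 0.05 (adjusted p = 1.34e-05). The call held in 8 of 19 settings. Among single controls, leaving out replicate 1 (0.33, adjusted p = 0.147) or replicate 2 (0.39, adjusted p = 0.139) ended it. So did leaving out any 6p library: replicate 1 gave 0.30 (adjusted p = 0.106), replicate 2 gave 0.49 (adjusted p = 0.0502) and replicate 3 gave 0.46 (adjusted p = 0.0769). Other settings that ended it were no filter (0.0727), median recentring (0.0655), TPM (0.0579), quantile normalization (0.152) and the replicate block, with the adjusted p in parentheses.

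HILPDA (NCBI gene 29923; chromosome 7, 128455849 to 128458418), the hypoxia-inducible ATGL inhibitor, was far less abundant. It was read at 5.04, 5.53 and 5.79 FPKM in control and 5.77, 6.70 and 6.91 FPKM in 6p, so that 6p replicate 1 fell just under control replicate 3. These values rest on 117 to 148 fragments a library, which alone give a counting error of up to 9.25%. Recovered fragments and lengths are the smallest whole numbers that the values allow, so a factor common to all 6 libraries of a gene could be missed. A factor of 2 would make 8 of the 10 members longer than all their GENCODE exons together, but not PLIN2 and MGLL. G0S2 (876 against 866 nt) and FITM2 (4628 against 4597 nt) are longer than these exons without any factor. The exons are thus no strict upper limit, and the check cannot decide for G0S2 and FITM2. The log2 fold change of HILPDA was 0.21 ± 0.09 (95% interval -0.00 to 0.42, adjusted p = 0.0919 in limma, range over settings 0.00154 to 0.783). It passed as higher without 6p replicate 1 (0.28, adjusted p = 0.0305), after median recentring (0.27, adjusted p = 0.0354), after quantile normalization (0.28, adjusted p = 0.0263) and without both libraries that stood apart (0.31 ± 0.07, adjusted p = 0.00154). The sign turned, to -0.04 ± 0.12, once the length trend was taken out. HILPDA has a length of 1250 nt, and AC010655.4 and AC010655.2 overlap 175 and 186 nt of its exons on the same strand.

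ABHD5 (NCBI gene 51099; chromosome 3, 43690108 to 43734371), the ATGL co-activator, was the least abundant member, at the 19.5th percentile. It was read at 2.49, 2.40 and 2.19 FPKM in control and 2.69, 2.14 and 2.48 FPKM in 6p, and the groups overlapped throughout. The log2 fold change was 0.03 ± 0.09 (95% interval -0.17 to 0.23, adjusted p = 0.79 in limma, range over settings 0.211 to 0.958). Exons of ANO10 on the opposite strand overlap 170 nt of it. The ratio of PNPLA2 to ABHD5 was 20.3, 22.3 and 27.0 in control and 22.7, 30.8 and 27.2 in 6p. ATGL transcript per length thus exceeded that of its co-activator in all libraries, with overlapping groups. The ratio of PNPLA2 to G0S2 was 0.130, 0.125 and 0.115 in control and 0.0878, 0.124 and 0.123 in 6p, and G0S2 was the more abundant in all 6 libraries. The ratio of PNPLA2 to HILPDA was 9.97 ± 0.259 in control and 10.1 ± 0.427 in 6p. The ranges of both inhibitor ratios overlapped between groups.

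LIPE (NCBI gene 3991; chromosome 19, 42401507 to 42427426), which encodes HSL, had the largest change of the 10. It was read at 5.93, 5.72 and 5.96 FPKM in control and 2.92, 3.22 and 2.93 FPKM in 6p. The libraries of each group lay close together and the groups far apart. The mean fell by 48.6%. The log2 fold change was -0.77 ± 0.07 (adjusted p = 0.000179 in limma), which understates a change at this level: it was -0.96 with a pseudocount of 0.01, and also -0.96 in limma voom on the recovered fragments, of which there were 529 to 576 in control and 247 to 293 in 6p. The call held in all 19 alternative settings, with log2 fold changes from -1.04 to -0.70 and adjusted p from 1.23e-06 to 0.00473. With the length trend removed it was -0.70 ± 0.07. LIPE-AS1 overlaps 500 nt of its exons on the opposite strand. The library kit keeps strand, but the sources used here do not say whether counting did, so reads of these opposite-strand genes could be included. These are bulk samples, so a lower level in each cell and fewer cells that express the gene cannot be told apart.

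The 3 genes whose profile over the 6 libraries was most like that of LIPE, among 7610 others with a mean of at least 5 FPKM, were HMGCS1, LRRC59 and DLGAP5, with Pearson's r of 0.999 for each on log2(FPKM + 1). HMGCS1, a cholesterol synthesis enzyme, went from 17.9 ± 0.211 to 7.25 ± 0.439 FPKM, LRRC59, an endoplasmic reticulum membrane protein, from 190 ± 1.10 to 128 ± 3.84 FPKM, and DLGAP5, a mitotic spindle protein, from 32.5 ± 0.279 to 14.3 ± 0.993 FPKM. As many as 98 genes had r above 0.99. The 6 points come from the same 2 groups, and r is given as a description with no p.

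MGLL (NCBI gene 11343; chromosome 3, 127689062 to 128052190), the monoglyceride lipase gene, was read at 18.3, 17.4 and 15.8 FPKM in control and 16.2, 22.9 and 19.7 FPKM in 6p. The low libraries of the groups were control replicate 3 and 6p replicate 1, the latter by -0.37 from the other 6p libraries on the log2 scale. ABHD5, which like MGLL (5386 nt) is among the longer members at 6100 nt, deviated by 0.16 in that library. Whether gene length had a part in these deviations was not tested. The log2 fold change was 0.17 ± 0.12 (95% interval -0.11 to 0.45, adjusted p = 0.283 in limma, range over settings 0.00878 to 0.993). It passed as higher with the length trend removed (0.26 ± 0.09, adjusted p = 0.0458), without 6p replicate 1 (0.29, adjusted p = 0.0408) and without both libraries (0.23 ± 0.07, adjusted p = 0.00878), and was -0.00 after rescaling to TPM. Of the 3 lipases of the cascade, LIPE was called lower in every setting run, and PNPLA2 and MGLL were called higher in some settings and not in others.

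**Figure D3:**
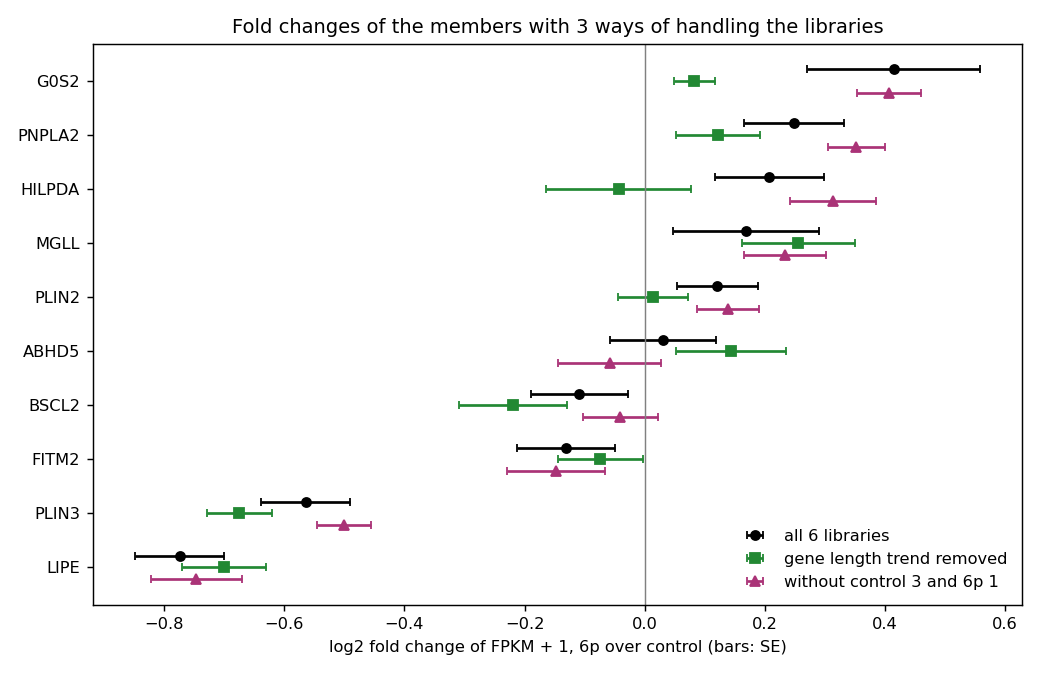
Log2 fold change of FPKM + 1, 6p over control, for each member, with SE, in all 6 libraries (black circles), with each library's gene length trend removed (green squares) and without control replicate 3 and 6p replicate 1 (purple triangles). PLIN3 and LIPE lie between -0.77 and -0.50 in all 3, and G0S2 moves from 0.41 to 0.08 when the length trend is removed.

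**Figure D4:**
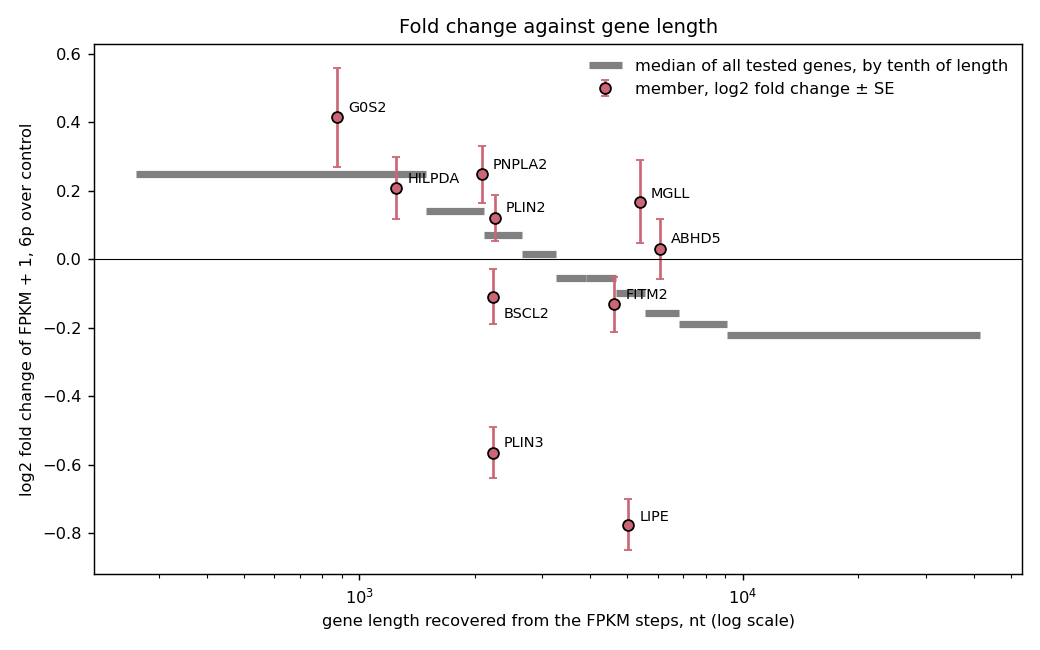
Log2 fold change of each member (red, with SE) against its length in nt (log axis), and the median of all tested genes in each of 10 equal groups by length (grey bars spanning the lengths of the group). G0S2 and HILPDA sit in the shortest group, whose median is 0.25, while PLIN3 and LIPE lie far below the medians of 0.07 and -0.10 at their lengths.

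Among 19 other genes of the droplet surface and its biogenesis, 9 were below the filter and 1, CIDEA, was not found among the genes of the deposited table. The remaining 9 were tested, with 1 higher, 3 lower and 5 not called, and a median log2 fold change of -0.22. Over all genes tested 46.5% were called, 21.3% as higher and 25.1% as lower, with a median of -0.04. That background applies to each list below too. The perilipin genes PLIN1 and PLIN4, known from adipose tissue, and PLIN5, known from oxidative tissues such as heart, were below the filter, at means of at most 0.294 FPKM in either group. ACSL3, an acyl-CoA synthetase of nascent droplets, fell from 29.3 ± 2.28 to 19.5 ± 0.846 FPKM (-0.56 ± 0.08, adjusted p = 0.00109 in limma). FAF2, which recruits the degradation machinery to droplets, fell from 34.7 ± 3.87 to 24.7 ± 3.03 FPKM (-0.47 ± 0.11, adjusted p = 0.011 in limma). LDAH, a droplet-associated hydrolase, fell from 6.65 ± 0.547 to 5.00 ± 0.671 FPKM (-0.36 ± 0.10, adjusted p = 0.0241 in limma). The LDAH call ended when control replicate 1 (adjusted p = 0.0828), control replicate 2 (adjusted p = 0.0886) or 6p replicate 3 (adjusted p = 0.0834) was left out. TMEM159, also called LDAF1, the partner of seipin, had a mean of 3.003 FPKM (SD 0.405) with vehicle and 4.11 ± 0.689 FPKM with 6p (0.35 ± 0.12, adjusted p = 0.0437 in limma). Its call held in 11 of 19 settings and ended when control replicates 1 (adjusted p = 0.144) or 2 (adjusted p = 0.082), or 6p replicates 1 (adjusted p = 0.101) or 2 (adjusted p = 0.0602), were left out.

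Among other neutral lipases and fatty acid carriers, 7 of 12 were tested, with 2 higher, 0 lower and 5 not called, and a median of -0.17. At an unadjusted p under 0.05 in limma 2 were higher and 1 lower, against 2883 and 3534 of all 11745 genes tested. At adjusted p under 0.05, limma voom called 2 higher and 0 lower, against 2459 and 2940 of all genes. At that same threshold 2 were higher and 2 lower with the length trend removed (24% and 29% of all genes). Without the 2 libraries that stood apart, 2 were higher and 4 lower (30.3% and 35.6% of all genes). PNPLA4, a relative of ATGL, rose from 0.680 ± 0.156 to 1.16 ± 0.0248 FPKM (0.36 ± 0.08, adjusted p = 0.00901 in limma). This is a low level in both groups, resting on 44 to 98 fragments a library. The log2 fold change understates a change at this level and was 0.78 with a pseudocount of 0.01. CES2, a carboxylesterase, had means of 7.61 ± 0.353 FPKM with vehicle and 10.1 ± 1.69 FPKM with 6p (0.35 ± 0.12, adjusted p = 0.038 in limma), with 6p replicate 1 at 8.14 FPKM close to the highest control at 7.86. Its call held in 11 of 19 settings, and leaving out any library other than 6p replicate 1 ended it, with adjusted p from 0.0818 to 0.125.

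The cyclic AMP arm is the route through which protein kinase A activates HSL and perilipins in adipose tissue. In its list 11 of 12 genes were tested, with 1 higher, 5 lower and 5 not called, and a median of -0.25. Among all genes tested 21.3% were called higher and 25.1% lower, with a median of -0.04. The list's median length was 4973 nt, in a length group with a median of -0.10. With the length trend removed the list's median was -0.20, against -0.03 for all genes. PDE3B, the phosphodiesterase that ends the signal, fell from 2.36 ± 0.104 to 1.28 ± 0.125 FPKM (-0.56 ± 0.08, adjusted p = 0.000907 in limma). Its log2 fold change was -0.88 with a pseudocount of 0.01. The kinase subunits PRKAR2B and PRKACA fell from 8.14 ± 0.741 to 5.18 ± 0.554 FPKM and from 28.5 ± 2.71 to 18.3 ± 2.38 FPKM. The 1 gene of this list called higher was PRKACB, another catalytic subunit, at 0.38 (chosen outside the rule for named genes, with its values known).

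HILPDA is a known target of the hypoxia response. In that list, 11 of 14 were tested, with 3 higher, 3 lower and 5 not called, and a median of -0.07. VEGFA, the angiogenic factor, rose from 8.43 ± 0.367 to 36.2 ± 2.30 FPKM, and EPAS1, which encodes HIF-2 alpha, from 0.864 ± 0.0591 to 3.16 ± 0.797 FPKM. ADM, which encodes adrenomedullin, fell from 7.92 ± 0.505 to 3.44 ± 0.140 FPKM, and EGLN1, the oxygen-sensing prolyl hydroxylase, from 14.5 ± 1.05 to 10.8 ± 0.232 FPKM. HIF1A, which encodes HIF-1 alpha and was named outside the rule, with its values known, fell from 42.2 ± 4.69 to 30.5 ± 2.91 FPKM (-0.45 ± 0.11, adjusted p = 0.00948 in limma), a call that held in all 19 alternative settings. The 2 HIF alpha genes were thus called in opposite directions. Of PPAR factors and their targets, 10 of 14 were tested, with 1 higher, 0 lower and 9 not called, and a median of 0.05. For this list 1 gene was higher and 1 lower at an unadjusted p under 0.05 in limma. Over all 11745 genes tested, 2883 were higher and 3534 lower at that threshold. At adjusted p under 0.05, limma voom called 1 higher and 0 lower, against 2459 and 2940 of all genes. Without the 2 libraries that stood apart, 4 were called higher and 1 lower, against 30.3% and 35.6% of all genes. PPARG, the adipogenic nuclear receptor, rose from 0.672 ± 0.0843 to 1.32 ± 0.0403 FPKM (0.48 ± 0.07, adjusted p = 0.0014 in limma), which is a low level in both groups. The ratio of its means was 1.97, so the log2 fold change of FPKM + 1 understates the change. Of FOXO and other regulators of PNPLA2, 7 of 8 were tested, with 1 higher, 0 lower and 6 not called, and a median of -0.12. Here too 1 gene was higher and 1 lower at an unadjusted p under 0.05 in limma. At adjusted p under 0.05, limma voom called 1 higher and 0 lower. Without the 2 libraries that stood apart, 1 was higher and 2 lower. The values over all genes in these settings are those given for the PPAR list. The riser was EGR1, an immediate early factor, from 3.71 ± 0.689 to 6.14 ± 1.24 FPKM (0.59 ± 0.15, adjusted p = 0.0134 in limma). The call did not pass after rescaling to TPM (adjusted p = 0.0827).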

How the data were processed

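The authors deposited FPKM values for 16070 genes. Tools listed in the submitters' processing notes are Cufflinks, HTSeq, HISAT2 and Trimmomatic, with GRCh38 as build. Versions, roles, annotation and any filter are not stated there. Fragments, gene lengths and library totals were recovered from the FPKM steps (Python 3.11.15, numpy 2.4.6, pandas 2.3.3): all 11745 tested genes (100%) gave whole fragments and lengths within 0.001.

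For genes averaging 0.5 FPKM or more, log2(FPKM + 1) was compared between groups by limma 3.58.1 (R 4.3.3), using eBayes with its robust and trend options. Its two-sided p-values were adjusted by Benjamini-Hochberg over all these genes, with 0.05 as threshold. The script was tested on simulated data with 200 changed genes. Those data had no length trend and no libraries that stood apart, so the fit's behaviour under either was not tested. The length trend was a loess fit (span 0.5) of each library's deviations on log2 length. Alternatives were other pseudocounts, filters, scalings and fits, a replicate block, and left-out libraries. There were 0 unused columns of sample values. The members, the 6 lists, the alternatives and the rule for named genes (all members, up to 4 called genes per list by smallest adjusted p, and the 3 genes most like the member with the largest change) were chosen with earlier results of these data known. Some genes of the lists are not reported here by name.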

Additional observations from a re-analysis of the deposited data

How the results depend on the processing

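The number of members called, 4 in all 6 libraries, was 2 with no filter, 2 after rescaling to TPM and 2 with the replicate number as a block, where 33.7%, 47.0% and 31.5% of all genes tested were called. It was 7 without control replicate 3 and 6p replicate 1 together (65.9% of all genes), and from 2 to 5 when each library was left out in turn (29.9% to 51.8%). PLIN3 and LIPE were called lower in all of these. Over all genes, 5457 were called, and from 3517 (without control replicate 2) to 6084 (without control replicate 3) when 1 library was left out. The sign of a member's log2 fold change turned in 7 cases, none of them called: PLIN2 (-0.0539), ABHD5 (-0.117) and MGLL (-0.0019) after rescaling to TPM, HILPDA (-0.0433) with the length trend removed, and ABHD5 without control replicate 3 (-0.0065), without 6p replicate 1 (-0.0209) and without both (-0.0584). Leaving out 1 library at a time gave ABHD5 from -0.0209 to 0.0939. Deviations of same-numbered libraries from their group means correlated at -0.57, 0.33 and -0.42, and those of control replicate 3 and 6p replicate 1 at 0.63. With 3 libraries per group such values cannot show whether same-numbered libraries were handled together. The fit with the replicate number as a block called 3694 genes. Under it G0S2 and PNPLA2 had adjusted p of 0.123 and 0.0781 in limma. The cause of these changes was not tested. Fragments limited HILPDA, ABHD5, LIPE and FITM2 most, with counting errors of up to 9.25%, 6.58%, 6.36% and 6.51%.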
